A study of Mus musculus with 9 samples.

Results

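The 40 genes described here encode the machinery that copies DNA: the origin recognition complex, the factors that license origins, the MCM helicase and its activators, the sliding clamp and its loader, the replicative polymerases, and enzymes of Okazaki fragment maturation and nucleotide supply. They were chosen by name, and each gene was read from the probe set annotated to it alone that had the highest mean signal over all 9 arrays. All 40 had such a probe set, among 18193 genes that did, and all 40 were among the 12375 genes bright enough to be tested. The lowest mean signal of a member over the 9 arrays was 135.9, against 25.27 as the signal below which probe sets were left out.

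The arrays profiled mouse T-cell lymphomas that had been grown in immunodeficient SCID recipient mice. Every tumour, in both groups, had the genotype G3 Atm-/- TERT-ER: the DNA damage kinase gene Atm is disrupted on both alleles, and the telomerase reverse transcriptase is fused to an oestrogen receptor domain that responds to 4-hydroxytamoxifen (4-OHT). The telomerase group held 3 tumours of passage 4 kept on 4-OHT, and the ALT group held 5 tumours of passage 4 kept on vehicle, which the labels class by alternative lengthening of telomeres (ALT), the recombination route that maintains telomeres without telomerase. A single parental tumour, labelled as telomerase-positive, was described apart from the comparison and entered it only in 1 alternative analysis. Drug, telomerase activity and ALT change together between the groups, so they cannot be told apart. No label used here states that each tumour grew in an animal of its own. Nor do the labels give the number of tumour lines behind either group. Tumours passaged from a shared line would not be independent replicates of ALT or of telomerase maintenance. The p-values therefore reflect the spread among these samples, which may be partly technical, and cannot be extended to other lines.

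Replication origins are licensed in G1, when the origin recognition complex (ORC), Cdc6 and Cdt1 load the MCM2-7 helicase onto DNA. Geminin (Gmnn) binds Cdt1 in S and G2 phase and blocks a further round of loading. In S phase, Cdc45 and the GINS complex join MCM2-7 to form the active helicase, polymerase alpha-primase lays down primers, and polymerases delta and epsilon extend them with the clamp Pcna, which replication factor C (RFC) loads. Many of these genes are transcribed at the G1 to S transition through E2F factors, which makes them common markers of proliferating cells, lymphomas among them.

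Promoter sequences are shown for 3 members that illustrate the range of E2F-type letters found near the start sites: Cdt1 and Gins3, which lie on chromosome 8 and were both higher in ALT tumours, and Mcm6, which had the most matches of these 3. Each is the 250 bases before the annotated start from RefSeq (GRCm38.p6), read 5′ to 3′ in the gene's direction, at chr8:122567765-122568014 (strand +), chr8:95633309-95633558 (strand +) and chr1:128359706-128359955 (strand -). Capitals mark matches, on either strand, to TTTCCCGC, TTTCGCGC, TTTGCCGC or TTTGGCGC.
Cdt1: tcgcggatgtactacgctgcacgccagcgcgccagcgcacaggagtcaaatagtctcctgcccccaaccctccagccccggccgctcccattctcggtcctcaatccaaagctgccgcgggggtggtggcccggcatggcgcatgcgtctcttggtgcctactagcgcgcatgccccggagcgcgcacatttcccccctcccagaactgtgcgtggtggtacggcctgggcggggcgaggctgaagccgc
Gins3: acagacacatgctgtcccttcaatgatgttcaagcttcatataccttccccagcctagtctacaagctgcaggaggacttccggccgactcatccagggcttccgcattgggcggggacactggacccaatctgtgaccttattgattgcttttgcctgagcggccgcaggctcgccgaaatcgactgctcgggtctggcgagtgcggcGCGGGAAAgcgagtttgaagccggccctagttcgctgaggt
Mcm6: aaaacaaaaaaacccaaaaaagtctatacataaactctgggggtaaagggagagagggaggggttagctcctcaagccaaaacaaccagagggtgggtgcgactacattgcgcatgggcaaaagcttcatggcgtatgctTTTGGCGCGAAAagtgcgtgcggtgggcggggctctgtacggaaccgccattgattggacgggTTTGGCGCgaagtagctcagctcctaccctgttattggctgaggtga
The Cdt1 window held 0 matches. In Gins3 the 1 match, TTTCCCGC on the opposite strand and read here as GCGGGAAA, began 41 bases before the start. Mcm6 held 3 matches: TTTGGCGC at 110 bases and again at 47 bases before the start, and TTTCGCGC on the opposite strand at 106 bases, read as GCGCGAAA and overlapping the first. A window was matched for 32 of the 40 members. Of these, 9 (28.1%) held at least 1 of the 4 motifs in any window. Among all 27025 genes with a window of this length, 583 did (2.16%). That background was not limited to the 12375 genes tested for expression. The 9 were Cdc6, Gins3, Mcm5, Mcm6, Mcm7, Orc1, Orc3, Pola1 and Rfc3, of which Gins3 alone passed the expression test described next. Gins2, Gins1, Gins4, Gmnn, Mcm4, Pole, Prim2 and Rfc2 had no matched window. A match describes these letters only, and no factor binding was measured.

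Most replication genes differed little between ALT and telomerase tumours. Of the 40 genes, 5 passed the test (12.5%): Cdt1, Gins2 and Gins3 were higher in ALT tumours, and Gmnn and Prim2 were lower. Over all 12375 genes tested with limma at a Benjamini-Hochberg adjusted p below 0.05, 17.5% passed, 7.47% higher and 10.1% lower in ALT tumours, so the members' share was below that of all genes. The groups did not overlap for 9 members (22.5%), 3 higher and 6 lower in ALT tumours, against 24.8% of all genes. An unadjusted p below 0.05 in limma was found for 9 of the 40 members and for 3887 of all 12375 genes, so such values were common. With quantile normalisation 3 members were higher and 1 lower, and 1125 of all genes were higher and 1047 lower. The median log2 change of the members, ALT minus telomerase, was -0.019, beside -0.0063 over all genes, and 19 members were positive and 21 negative. The median absolute change was 0.16 for the members and 0.21 for all genes. Changes are differences of log2(signal + 16), which understates those of dim probe sets.

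The intervals show how tightly the small changes were measured. For 30 of the 40 members the 95% interval of the log2 change lay wholly within 0.5 of 0, and 32 had an estimate within 0.25 of 0. The widest bound among the 35 members that did not pass was 0.65, for Mcm10. In each group the spread between tumours was small, with a median coefficient of variation of 11.4% in the telomerase group and 10.1% in the ALT group.

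**Figure D1:**
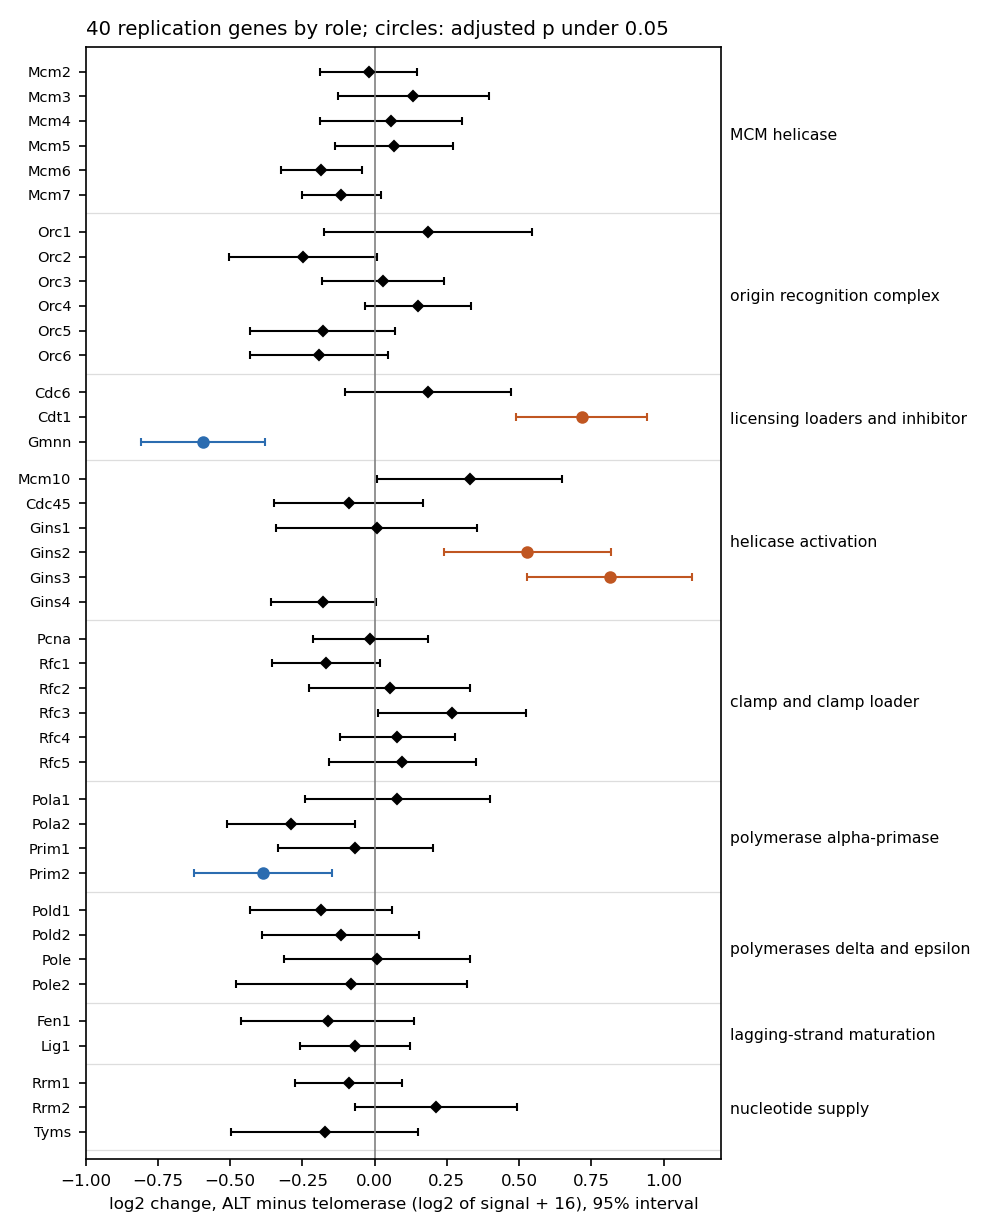
Log2 change of each of the 40 replication genes, ALT minus telomerase tumours (x axis, log2 of signal + 16), by role; bars are 95% intervals, circles mark the 5 genes with adjusted p below 0.05 and diamonds the other 35. Cdt1, Gins3 and Gins2 lie to the right, Gmnn and Prim2 to the left, and 32 of the 40 estimates lie within 0.25 of 0.

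Other cell material differed between tumours. Of the 13 T-cell markers with a usable probe set, all 13 were above the signal filter in every tumour. Their summed signal was 36411 to 39623 in telomerase tumours, 28969 to 35775 in ALT tumours and 40652 in the parental tumour, so the sum was lower in every ALT tumour. Single markers went both ways: Cd3d, Cd3e and Cd3g were lower in every ALT tumour, and Cd2, Cd4 and Cd8b1 were higher in every ALT tumour. The median over the 13 markers overlapped, at 1295 to 1565 in telomerase tumours and 1323 to 1646 in ALT tumours. The part of T-cell content in the results was not tested. Transcripts of pancreatic acinar cells were abundant on 4 arrays, telomerase tumour 3 and ALT tumours 1, 2 and 5, where the 13 markers on the array summed to between 95129 and 196522 signal units. On the other 5 arrays they summed to between 302.8 and 1028. Skeletal muscle markers summed to 13574 in the parental tumour and 8806 in telomerase tumour 1, against 236.3 to 583.3 elsewhere. In bulk tissue, fewer cells of a type and less RNA per cell cannot be told apart.

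Origin recognition complex genes gave no call. The 6 subunits, which mark origins and recruit Cdc6, had log2 changes from -0.25 for Orc2 to 0.19 for Orc1, with 0 of 6 past the adjusted threshold in limma and 0 of 6 at an unadjusted p below 0.05. Orc2 did separate the groups, since its lowest telomerase tumour read 380.3 and its highest ALT tumour 377.6, but its adjusted p was 0.170. Orc5 averaged 319.8 ± 2.88 (SD, n = 3) in telomerase tumours and 282.0 ± 34.7 (SD, n = 5) in ALT tumours, and Orc6 averaged 989.5 ± 119 and 862.1 ± 75.2, with overlapping groups in both cases. The kept probe sets of Orc3 and Orc4 gave 0.03 and 0.15, and those of the same genes that were not kept gave other values, described later.

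Among the licensing factors, the loader Cdt1 and its inhibitor geminin moved in opposite directions. Cdt1 signal was 2549, 2488 and 2010 in telomerase tumours 1 to 3, 4352, 3857, 4049, 3406 and 3661 in ALT tumours 1 to 5, and 2465 in the parental tumour. Every ALT tumour lay above every telomerase tumour, and the parental tumour lay inside the telomerase range. The means were 2349 ± 295 (SD, n = 3) and 3865 ± 362 (SD, n = 5), a 1.65-fold ratio. Cdt1 rose by a log2 change of 0.72 (SE 0.10, 95% interval 0.49 to 0.94, limma adjusted p = 0.00132). Its other tested probe set changed by 0.76. On the passaged arrays without abundant pancreatic transcripts (2 telomerase and 2 ALT tumours) the change was 0.56 (adjusted p = 0.0344), and on the 4 arrays with them it was 0.97 (adjusted p = 0.0241). The last fit, here and for the genes that follow, sets a single telomerase tumour against 3 ALT tumours and assumes that it varies as they do.

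Geminin was lower in every ALT tumour. Gmnn signal was 2218, 2269 and 1990 in the telomerase tumours, 1445, 1416, 1488, 1203 and 1589 in the ALT tumours, and 2318 in the parental tumour. The groups did not overlap, and the parental tumour stood above all 8 passaged tumours. Means of 2159 ± 149 (SD, n = 3) and 1428 ± 142 (SD, n = 5) gave a log2 change of -0.59 (SE 0.10, 95% interval -0.81 to -0.38, limma adjusted p = 0.00277). Without the arrays rich in pancreatic transcripts the change was -0.74 (adjusted p = 0.0241), and within those arrays it was -0.42 and did not pass (adjusted p = 0.213). Cdc6, which joins ORC to load MCM2-7, averaged 1070 ± 146 (SD, n = 3) and 1220 ± 167 (SD, n = 5), with overlapping groups and a change of 0.18 (adjusted p = 0.369).

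**Figure D2:**
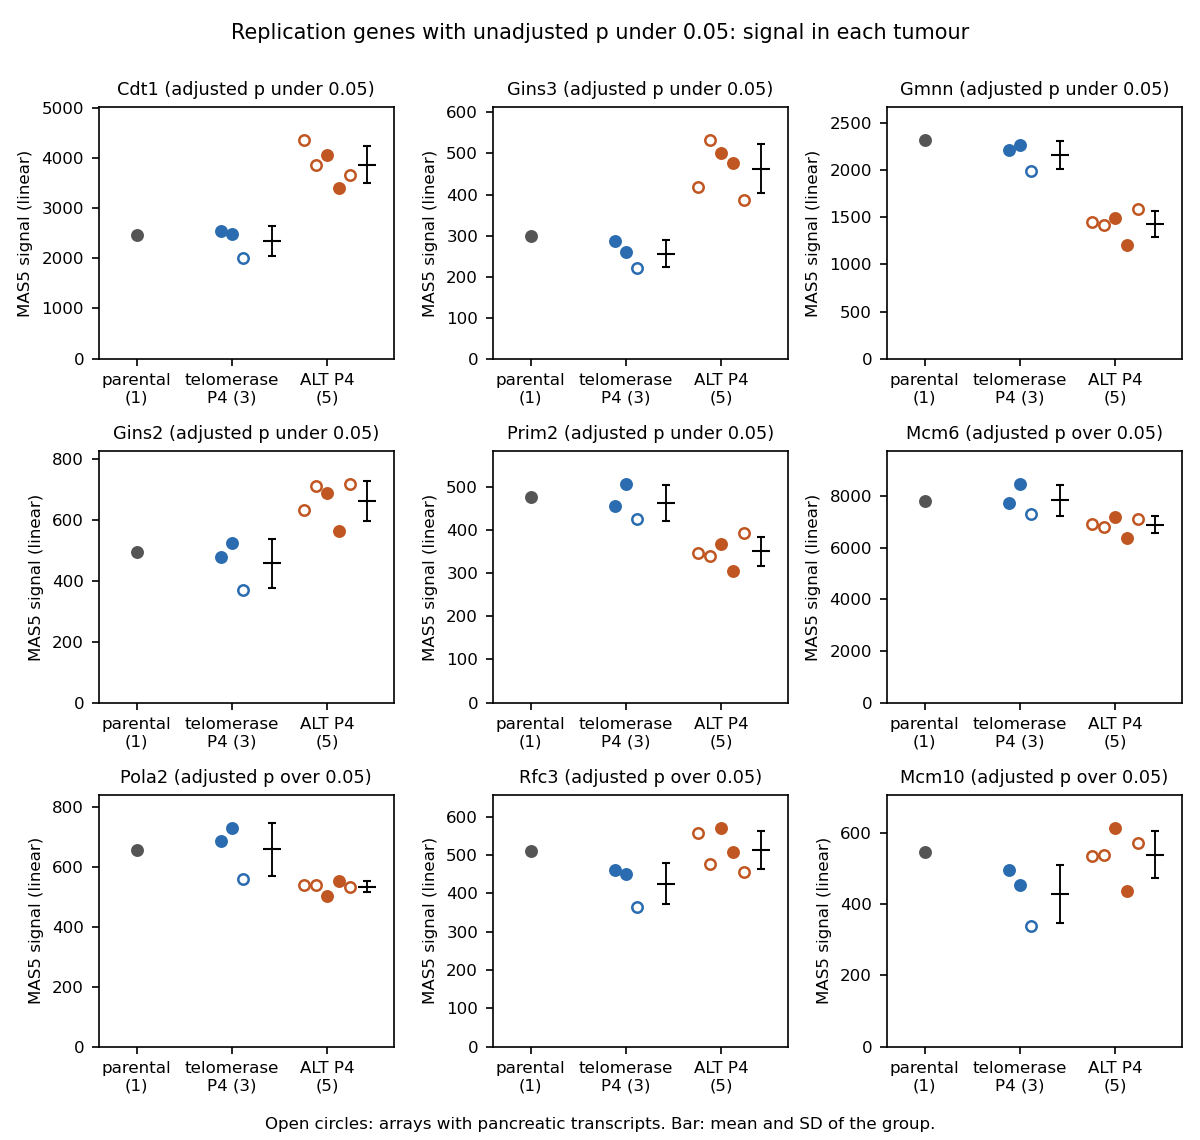
Signal (y axis, linear MAS5 units) of the 9 members with an unadjusted p below 0.05 in each tumour, by group (x axis); bars are mean and SD, and open circles are arrays with abundant pancreatic transcripts. For Cdt1, Gins3, Gmnn, Gins2 and Prim2 (adjusted p below 0.05) and for Mcm6 and Pola2 (above it) the groups do not overlap, while those of Rfc3 and Mcm10 do.

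The MCM2-7 helicase, the ring that unwinds DNA at the fork, gave no call in its 6 subunits, and 1 of the 6 had an unadjusted p below 0.05. That gene was Mcm6, with signals of 7725, 8460 and 7289 in telomerase tumours, 6894, 6813, 7197, 6367 and 7117 in ALT tumours, and 7783 in the parental tumour. All ALT tumours were below all telomerase tumours, but by little: the means of 7825 ± 592 (SD, n = 3) and 6878 ± 326 (SD, n = 5) differed by -0.18 on the log2 scale (95% interval -0.32 to -0.04, limma adjusted p = 0.0710). Mcm7 read 5919, 5920 and 5464 in telomerase tumours, 5372, 5466, 5492, 5476 and 4826 in ALT tumours, and 6573 in the parental tumour. Its groups overlapped, with the parental tumour highest of the 9 and ALT tumour 5 lowest, and its change of -0.12 did not pass (adjusted p = 0.229).

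The remaining MCM subunits had interleaved groups. Mcm2 signal was 2954, 3034 and 2732 in telomerase tumours, 2845, 2886, 3063, 2545 and 2995 in ALT tumours, and 3107 in the parental tumour. Its change was -0.02 with a 95% interval of -0.19 to 0.15. Mcm4 signal was 2641, 2688 and 2173 in telomerase tumours, 2451, 2687, 2705, 2191 and 2982 in ALT tumours, and 2813 in the parental tumour, and its groups overlapped nearly throughout. Mcm5 signal was 3953, 4318 and 3513 in telomerase tumours, 4219, 4238, 4087, 3534 and 4495 in ALT tumours, and 4060 in the parental tumour, again with overlapping groups. The changes of Mcm3, Mcm4 and Mcm5 were 0.13, 0.06 and 0.07, each with an interval that spanned 0. Mcm2, Mcm4, Mcm5, Mcm6 and Mcm7 are given per tumour because they were among the 10 members with the highest mean signal; signals of different probe sets are not compared.

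Of the 6 helicase activation genes, 2 of the 4 GINS subunits rose in ALT tumours and the other members did not pass. GINS is the 4-subunit ring that bridges MCM2-7 and Cdc45. Gins3 signal was 286.4, 260.6 and 221.8 in telomerase tumours, 418.8, 532.6, 500.2, 476.3 and 387.4 in ALT tumours, and 300.0 in the parental tumour. The ALT tumours all lay above the parental tumour, which in turn lay above the telomerase tumours. With means of 256.3 ± 32.5 (SD, n = 3) and 463.0 ± 59.3 (SD, n = 5), Gins3 had the largest change among the 40 members, 0.81 (SE 0.13, 95% interval 0.53 to 1.10, limma adjusted p = 0.00243). Its other probe set gave 0.60. The change was 0.80 on arrays without abundant pancreatic transcripts (adjusted p = 0.0222) and 0.95 on those with them, where it did not pass (adjusted p = 0.0856).

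Gins2 signal was 479.9, 523.9 and 369.7 in telomerase tumours, 632.9, 712.1, 689.1, 563.2 and 719.0 in ALT tumours, and 494.8 in the parental tumour. No ALT tumour reached down to the telomerase range, in which the parental tumour lay. Means of 457.8 ± 79.4 (SD, n = 3) and 663.2 ± 65.4 (SD, n = 5) gave a change of 0.53 (SE 0.13, 95% interval 0.24 to 0.82, limma adjusted p = 0.0203), and the other probe set of the gene gave 0.55. This call was the less stable of the GINS pair. It did not pass without telomerase tumour 1 (adjusted p = 0.0553) or without telomerase tumour 3 (change 0.39, adjusted p = 0.0691), and the change was 0.30 on the arrays without abundant pancreatic transcripts (adjusted p = 0.289) and 0.87 on those with them (adjusted p = 0.0555).

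The other GINS subunits went differently. Gins1 averaged 662.5 ± 160 (SD, n = 3) and 654.8 ± 70.0 (SD, n = 5), a change of 0.01. Gins4 was below the telomerase range in every ALT tumour, at most 617.7 against at least 654.7, yet by only -0.18 (adjusted p = 0.171). Cdc45, the helicase cofactor, changed by -0.09 with overlapping groups. Mcm10, which acts in helicase activation at origins, read 494.8, 454.4 and 338.2 in telomerase tumours, 536.7, 536.9, 614.3, 437.8 and 571.5 in ALT tumours, and 547.0 in the parental tumour. ALT tumour 4 fell inside the telomerase range, and the change of 0.33 did not pass (unadjusted p = 0.0461, adjusted p = 0.151).

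Neither the sliding clamp nor its loader gave a call, and 1 of these 6 genes had an unadjusted p below 0.05. Pcna, the ring that tethers polymerases to DNA, read 8130, 8307 and 7396 in telomerase tumours, 7379, 8587, 8843, 6743 and 7876 in ALT tumours, and 8557 in the parental tumour. The telomerase values fell within the range of the ALT values, and the change was -0.02 (95% interval -0.22 to 0.18). Among the RFC subunits, which open and close the clamp, changes ran from -0.17 for Rfc1 to 0.27 for Rfc3. Rfc3 signal was 461.4, 450.2 and 363.2 in telomerase tumours, 558.4, 475.9, 571.0, 506.9 and 456.4 in ALT tumours, and 510.3 in the parental tumour. ALT tumour 5 fell just inside the telomerase range, and the adjusted p was 0.145. Rfc2, Rfc4 and Rfc5 changed by 0.05, 0.08 and 0.10.

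Polymerase alpha-primase starts each new strand with an RNA primer and a short stretch of DNA. Its primase regulatory subunit Prim2 fell, and 2 of the 4 genes of the complex had an unadjusted p below 0.05, beside 3887 of all 12375 genes. Prim2 signal was 455.6, 506.4 and 424.7 in telomerase tumours, 345.8, 340.3, 368.2, 303.8 and 393.5 in ALT tumours, and 476.5 in the parental tumour. The groups did not overlap, and the parental tumour lay inside the telomerase range. Means of 462.2 ± 41.3 (SD, n = 3) and 350.3 ± 33.4 (SD, n = 5) gave a change of -0.39 (SE 0.11, 95% interval -0.62 to -0.15, limma adjusted p = 0.0335). This was the least stable of the 5 calls: it held in 11 of 22 alternative analyses, and the gene's other tested probe set gave -0.24 (adjusted p = 0.251). Without telomerase tumour 1 or 2, or ALT tumour 1, 2 or 4, the adjusted p was between 0.0543 and 0.133. On arrays without and with abundant pancreatic transcripts the change was -0.50 (adjusted p = 0.113) and -0.23 (adjusted p = 0.613).

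Pola2, the accessory subunit of polymerase alpha, read 688.1, 731.7 and 561.2 in telomerase tumours, 539.4, 540.8, 503.5, 552.7 and 534.1 in ALT tumours, and 656.5 in the parental tumour. All ALT tumours were below telomerase tumour 3, the lowest of its group, and the change of -0.29 (95% interval -0.51 to -0.07) had an adjusted p of 0.0734. The catalytic primase gene Prim1 read 4217, 3391 and 3440 in telomerase tumours, 3908, 3439, 4118, 3212 and 2933 in ALT tumours, and 4669 in the parental tumour. Its groups were mixed, with the parental tumour highest of the 9, and it changed by -0.07. The catalytic polymerase subunit Pola1 changed by 0.08, with an interval of -0.24 to 0.40.

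The genes that act after priming did not pass in any case. The 4 subunits of polymerases delta and epsilon, which copy the bulk of the genome, changed by between -0.19 (Pold1) and 0.01 (Pole), with 0 of 4 at an unadjusted p below 0.05 in limma. Fen1, the flap nuclease, and Lig1, the ligase that seals Okazaki fragments, changed by -0.16 and -0.07, also with 0 of 2 at an unadjusted p below 0.05. The ribonucleotide reductase subunits, which make deoxynucleotides, were both bright on the array. Rrm1 read 3034, 2889 and 2551 in telomerase tumours, 2870, 2703, 2682, 2360 and 2637 in ALT tumours, and 3511 in the parental tumour. Rrm2 read 3839, 3818 and 2943 in telomerase tumours, 4032, 4309, 3757, 3456 and 4939 in ALT tumours, and 4222 in the parental tumour. Both had overlapping groups, with changes of -0.09 and 0.21. Thymidylate synthase, Tyms, averaged 146.4 ± 25.3 (SD, n = 3) and 127.8 ± 17.5 (SD, n = 5), a change of -0.17, and 0 of the 3 nucleotide supply genes had an unadjusted p below 0.05.

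The 3 genes that rose all lie on chromosome 8, and the gene with the lowest change, Gmnn, lies on chromosome 13. The genes around each were therefore read in chromosome order, 10 tested genes on either side. Around Cdt1, 6 of 20 neighbours rose in ALT tumours and 0 fell, with a median log2 change of 0.40; those that rose included Aprt, Cyba, Ctu2 and Ankrd11. Around Gins2, 8 of 20 rose and 0 fell, with a median of 0.47, among them Cox4i1, Usp10 and Emc8. Around Gins3, 5 of 20 rose and 0 fell, with a median of 0.24. These medians lie above the 95th percentile of such windows over all genes, which was 0.21. The 5th percentile was -0.26 and the median -0.0072 over 12349 windows. The 3 windows were centred on genes that had passed as higher and share a chromosome, so they are not separate observations. The window of Rfc3 on chromosome 5, which did not pass, had a median of 0.23.

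The geminin region showed the reverse. Of 20 neighbours of Gmnn, 12 fell and 0 rose, with a median of -0.52, and those that fell included Tdp2, Mrs2, Acot13 and Sox4. Over chromosome 13 as a whole, 178 of 444 tested genes fell and 9 rose, with a median of -0.37. Around Prim2 on chromosome 1, which fell by 0.39, the neighbours were mixed, with a median of 0.13. Tram2, Kcnq5 and Imp4 rose, and Zfp451 and Dst, which lie 3 and 4 places from Prim2 on the same side, fell by 0.55 and 0.60. DNA copy number was not measured, and its part in these values was not tested.

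Chromosome 8 carries 6 of the 40 members. From Cfap20 to the distal end, 91 of 232 tested genes rose and 2 fell, with a median of 0.36, whereas nearer the centromere 31 of 422 rose and 34 fell, with a median of -0.021. Gins3 lies 3 tested genes beyond Cfap20, Gins2 153 and Cdt1 177. Gins4, Mcm5 and Orc6 lie on the other side, with Orc6 the nearest at 52 genes, and changed by -0.18, 0.07 and -0.19. The position of this boundary was set with the data in view, so the contrast is a description.

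**Figure D3:**
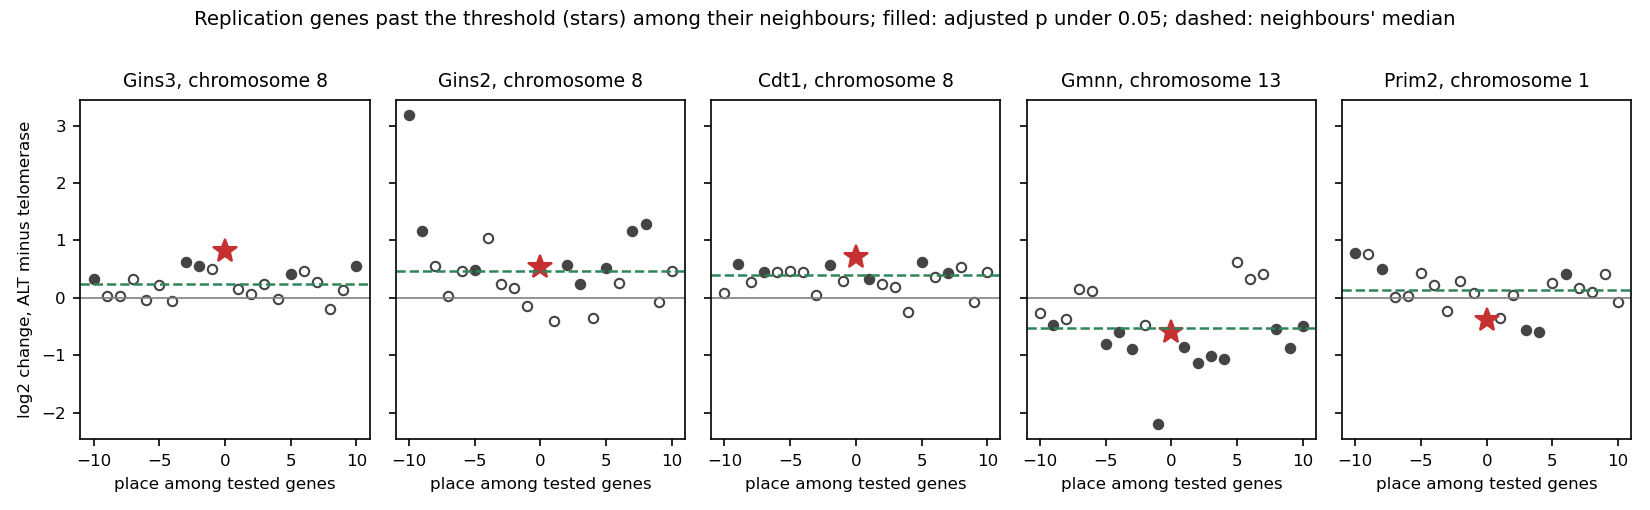
Log2 change, ALT minus telomerase (y axis), of the 5 members past the threshold (stars) and of the 10 tested genes on either side in chromosome order (x axis, place among tested genes); filled points passed the test and the dashed line is the neighbours' median. The dashed line lies at 0.24, 0.47 and 0.40 for the chromosome 8 members, at -0.52 for Gmnn and at 0.13 for Prim2, whose star lies on the other side of 0.

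Over all 40 members, the change of a gene and the median of its neighbours had a Pearson correlation of 0.64 and a Spearman correlation of 0.32. These are descriptions across genes, which share the same 8 tumours and in part the same chromosome. Among the 35 members that did not pass, the Pearson correlation was 0.19, and 22 of the 40 members had the sign of their neighbours.

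The level of the machinery as a whole varied between single tumours of both groups. As the median over the 40 genes of the log2 deviation from the mean of the 8 passaged tumours, the level was 0.11, 0.09 and -0.13 in telomerase tumours 1 to 3, -0.03, 0.05, 0.06, -0.15 and 0.0070 in ALT tumours 1 to 5, and 0.13 in the parental tumour. ALT tumour 4 and telomerase tumour 3 were the lowest, and both groups spanned 0. Telomerase tumour 3 had the lowest signal of its group for 35 of the 40 members (87.5%), against 35.2% of all genes tested. ALT tumour 4 had the lowest of its group for 22 members (55.0%), against 16.6% of all genes. Telomerase tumour 3 is an array with abundant pancreatic transcripts and ALT tumour 4 is not. Without the 4 arrays rich in these transcripts the members' median change was -0.12, and within them it was 0.10; the part of the pancreatic material in these levels was not tested.

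Mitotic genes ordered the tumours differently. Over 22 mitotic genes the level was -0.06, -0.03 and -0.19 in the telomerase tumours, -0.08, 0.23, 0.12, -0.07 and 0.18 in the ALT tumours, and -0.07 in the parental tumour. The parental tumour was thus high for replication genes, while its mitotic level was close to that of telomerase tumour 1. The reference mean is over 8 tumours, 5 of them ALT, so a level below it need not be low among telomerase tumours. Most single mitotic genes in the parental tumour lay above the telomerase mean. On the log2 scale the difference was 0.52 for Mki67 and -0.13 for Cdc25c. ALT tumours 2, 3 and 5 had the highest mitotic values, and telomerase tumour 3 the lowest.

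**Figure D4:**
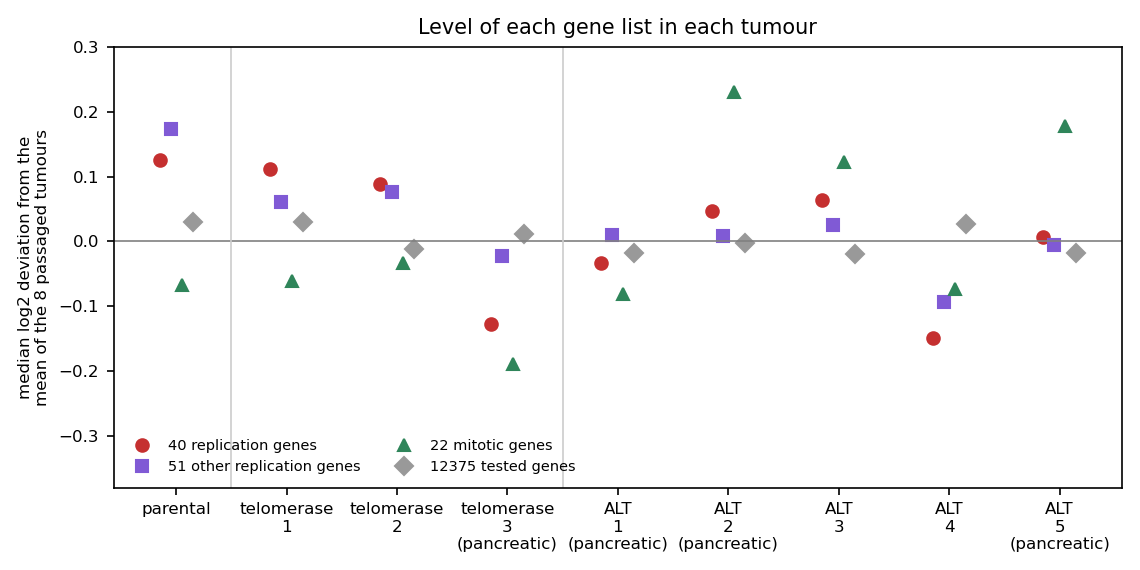
Median log2 deviation of each gene list from the mean of the 8 passaged tumours (y axis) in each tumour (x axis); circles are the 40 replication genes, squares 51 other replication genes, triangles 22 mitotic genes and diamonds all 12375 tested genes. The circles are highest in the parental tumour (0.13) and lowest in ALT tumour 4 (-0.15) and telomerase tumour 3 (-0.13), while the diamonds stay near 0.

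In the parental tumour, 25 of the 40 members (62.5%) lay nearer to the telomerase mean than to the ALT mean, against 71.2% of all genes, and the 25 included Cdt1, Gmnn, Gins2, Gins3 and Prim2. The parental signal exceeded all 8 passaged tumours for 10 members, Mcm2, Mcm7, Orc5, Gmnn, Cdc45, Gins4, Prim1, Fen1, Lig1 and Rrm1, where 12.6% of all genes did so, and was below all 8 for 0 members. With a single parental array these are values without a replicate check.

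Several members were read by more than 1 probe set, and the choice mattered most in the origin recognition complex. Of 91 single-gene probe sets of the members, 84 were bright enough to be tested, and 29 members had more than 1. Among the 44 that had not been kept, 16 had the opposite sign to the kept one. In a fit over all probe sets, 8 of the 44 passed the threshold, beside 4511 of all 22362. In 5 of these 8 the kept probe set of the gene did not pass: 2 of Orc4 and 1 each of Orc3, Mcm5 and Rrm2.

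Orc4 showed the largest disagreement. Its kept probe set, 1453804_a_at, read 559.8, 612.1 and 619.7 in telomerase tumours and 610.7, 662.0, 695.4, 665.6 and 687.4 in ALT tumours, a change of 0.15 (adjusted p = 0.249). Another, 1423336_at, read 511.2, 437.8 and 460.7 in telomerase tumours, 220.4, 247.4, 183.2, 239.8 and 228.1 in ALT tumours, and 476.2 in the parental tumour. The groups were far apart on this probe set, with a change of -1.02 (SE 0.12, limma adjusted p = 0.000287). Probe set 1423337_at changed by -0.66 (adjusted p = 0.00430), and 1431172_at by -0.21 with overlapping groups. Which part of the Orc4 transcripts each probe set reads was not analysed here, so no direction is given for the gene.

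**Figure D5:**
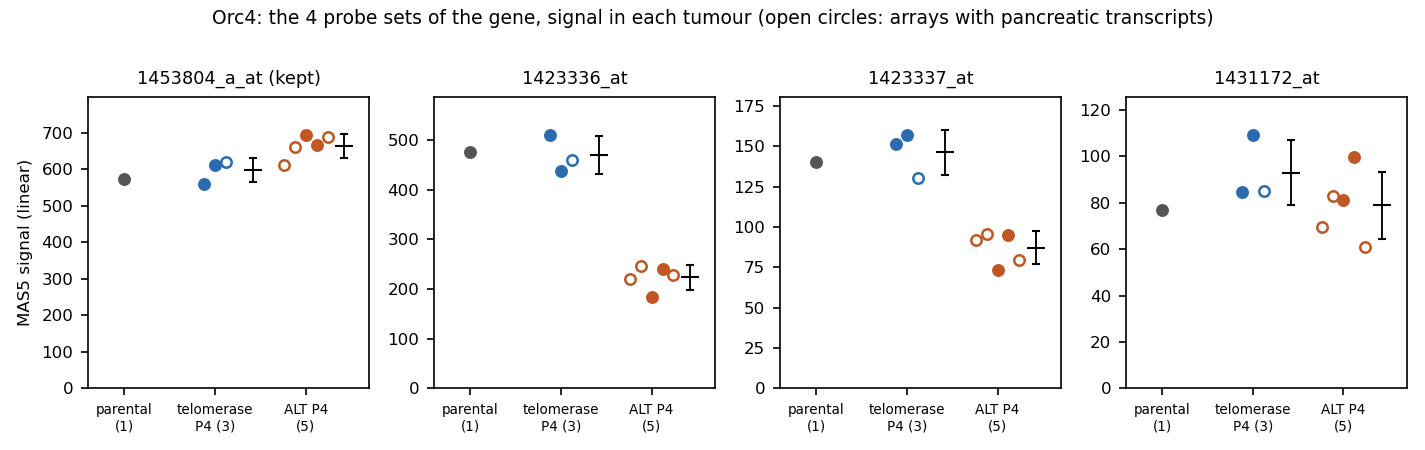
Signal (y axis, linear MAS5 units, each panel with its own scale) of the 4 single-gene probe sets of Orc4 in each tumour by group (x axis); bars are mean and SD, and open circles are arrays with abundant pancreatic transcripts. The kept probe set overlaps between groups, while 1423336_at and 1423337_at are lower in all 5 ALT tumours (log2 changes of -1.02 and -0.66).

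Orc3, Mcm5 and Rrm2 had 1 such probe set each. Orc3 changed by 0.03 on the kept probe set and by -0.46 on 1416116_at (adjusted p = 0.0333), which averaged 119.1 ± 11.04 (SD, n = 3) and 82.9 ± 12.7 (SD, n = 5). Mcm5 changed by 0.07 on the kept probe set and by -0.74 on 1459658_at (adjusted p = 0.0143), which averaged 87.2 ± 8.54 (SD, n = 3) and 46.5 ± 11.6 (SD, n = 5). Rrm2 changed by 0.35 on 1448226_at (adjusted p = 0.0473), the same direction as the kept one.

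Genes of replication outside the 40 gave a mixed picture in which most calls were lower in ALT tumours. Of 55 such genes, 51 were tested, and 2 rose and 8 fell (19.6% of those tested, against 17.5% of all genes), or 4 and 6 with quantile normalisation. With the mean of a gene's probe sets in place of the brightest, 0 rose and 5 fell. Pole3, a histone-fold subunit of polymerase epsilon, rose by 0.45 (adjusted p = 0.0328). Pold3, an accessory subunit of polymerase delta, fell by 0.46 (adjusted p = 0.0306). Rpa3, of the single-strand binding complex RPA, fell by 0.67 (adjusted p = 0.00310), from 1045 ± 83.9 (SD, n = 3) to 651.7 ± 79.7 (SD, n = 5). Chaf1b, of the histone chaperone CAF-1, fell by 0.65 (adjusted p = 0.00198), from 770.9 ± 52.0 to 485.5 ± 46.1. Donson, a replisome factor, fell by 0.44 (adjusted p = 0.0172).

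Nucleotide supply outside the member list included 3 of these 8 lower genes, of 7 tested (42.9%, against 10.1% lower over all genes). They were Tk1 (thymidine kinase, -0.50), Dtymk (thymidylate kinase, -0.38) and Rrm2b (a ribonucleotide reductase subunit, -0.41), with adjusted p between 0.0321 and 0.0471. The groups overlapped for Tk1 and not for Dtymk or Rrm2b. Without telomerase tumour 2, only 3 of the 51 other replication genes passed. Among 8 genes tied to Cdt1 turnover, Fbxo31, an F-box protein gene on distal chromosome 8, rose by 1.16 (adjusted p = 0.000814), and Skp2, an F-box protein that targets Cdt1 among others, fell by 0.38 (adjusted p = 0.0328). Fbxo31 read 71.4, 74.7 and 105.2 in telomerase tumours and 186.9, 239.1, 169.8, 218.6 and 211.4 in ALT tumours. Of the 8 turnover genes, 2 passed (25.0%, against 17.5% of all genes), and 3 had a positive and 5 a negative change. An unadjusted p below 0.05 in limma was found for 5 of the 8, beside 3887 of all 12375 genes. Protein levels of Cdt1 were not measured.

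Among 40 tested cell cycle genes, 6 rose and 3 fell (22.5%, against 17.5% of all genes). With the mean of a gene's probe sets in place of the brightest, 2 rose and 5 fell. Of the E2F and pocket protein genes, 5 of 13 passed (38.5%). E2f3, an activator E2F, fell by 0.76 (adjusted p = 0.00168) and lies on chromosome 13, like Gmnn. Tfdp1, the partner of most E2F proteins, fell by 0.41 (adjusted p = 0.00428) and lies on chromosome 8 on the centromere side of Cfap20, while E2f6, a repressor, rose by 0.49 (adjusted p = 0.00562). Rbl2, the pocket protein p130, rose by 0.93 (adjusted p = 0.00190) and lies on chromosome 8, 32 tested genes before Cfap20. Of 5 S-phase cyclin, kinase and phosphatase genes 0 passed in limma, with 1 at an unadjusted p below 0.05.

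Of 22 mitotic genes, 18 had a positive change, with a median of 0.17, 9 had an unadjusted p below 0.05, and 4 passed (18.2%). Over all 12375 genes, 6077 had a positive change, 3887 had an unadjusted p below 0.05, and 17.5% passed, so the mitotic share of calls was near that of all genes. Cenpa, Tpx2 and Nusap1 rose by 0.42, 0.40 and 0.36, and Kif11, the spindle kinesin, fell by 0.83 (adjusted p = 0.00633). The groups did not overlap for any of these 4 genes.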

How the data were processed

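Total RNA of 9 tumours was hybridised to expression arrays, 1 array a tumour. The deposited table holds the authors' intensity values on a linear scale, computed in MAS5 (named in the submitters' processing notes, with no version or scaling target in the labels), and the number of arrays limits the precision. Median signal was 39.7 to 43.7 per array. After 64 control probe sets were left out, 45037 remained, of which 34945 were annotated to 1 gene, 932 to several and 9160 to none; symbols came from GEO's platform annotation. Each of 18193 genes was read from its probe set with the highest mean over the 9 arrays, and the lowest 40% of probe sets by mean (signal under 25.27) were left out. ALT P4 and telomerase P4 tumours were compared on log2(signal + 16) with limma 3.58.1 (lmFit and eBayes with an intensity trend) in R 4.3.3, and p-values were adjusted by Benjamini-Hochberg over all 12375 genes at 0.05; the code was tested on simulated data. Tables and plots used Python 3.11.15, numpy 2.4.6, pandas 2.3.3 and matplotlib 3.10.9.

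The members, gene lists and the chromosome 8 boundary were chosen with earlier results of these data known. Values per array are printed for members with an unadjusted p below 0.05 and for the 10 with the highest mean signal, and of the other lists up to 4 genes past the threshold are named, by smallest p. Alternatives covered the pseudocount (1 and 64), the filter (none and 60%), scaling, probe set, variance model, a replicate block, the pancreatic transcripts, pooling of the parental with the telomerase tumours, a threshold of 0.1 and leaving out each tumour. Promoter windows came from RefSeq; positions of probes within transcripts were not analysed here.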

Additional observations from a re-analysis of the deposited data

Results flagged for a closer look

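In 2 of the 40 members a single ALT tumour stood apart from the other 4, with a gap to its neighbour of over 0.71 of the group's range; chance does this in about 1 in 20 groups. Mcm7 read 4826 in ALT tumour 5, below the 5372 to 5492 of the other ALT tumours. Pole2 read 723 in the same tumour, above the 495.4 to 550.8 of the others. Neither gene passed the test between groups.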

How the results depend on the processing

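The call for Cdt1 held under all 22 alternatives, 1 of which rests on a single telomerase tumour, with log2 changes from 0.49 to 0.97. Gmnn and Gins3 each held under 21, losing the call only on arrays with pancreatic transcripts, Gins2 under 17 and Prim2 under 11. Fits on subsets gave fewer calls. On arrays without pancreatic transcripts, 833 of all genes, 3 members, 3 other replication genes and 2 cell cycle genes passed, and the members' median change was -0.12. Arrays with pancreatic transcripts, where the lone telomerase tumour is assumed to have the spread of the ALT group, gave 329, 1, 0 and 1 in limma, with 8 of the other replication genes at an unadjusted p below 0.05, and a median of 0.10. Deviations of tumours with the same replicate number had correlations of -0.302, -0.402 and -0.572. Each such pair sets an array with abundant pancreatic transcripts against an array without them, and every pair unlike in this way was negative. The correlations therefore cannot show whether equal numbers mark a pairing. The replicate block, over 3 and 3 tumours, gave 1000 genes, 3 members, 3 other replication genes and 4 cell cycle genes. Leaving out 1 tumour in turn gave 1163 to 2095 genes, 3 to 5 members, 3 to 7 other replication genes and 6 to 11 cell cycle genes, with a median change of the members from -0.09 to 0.03; without telomerase tumour 1 the first 3 counts were 1163, 3 and 4. Other replication genes past the threshold numbered 5 with the mean of probe sets, 5 with the acinar term and 17 with the parental tumour added. With the mean of probe sets 0 of these were higher and 5 lower, so Pole3 and Fbxo31 were no longer calls. That mean took in every single-gene probe set of a gene, also those under the signal filter. For Cdt1 these included 1455791_at, with means of 4.62 in telomerase and 4.69 in ALT tumours. The part of such dim probe sets in this alternative was not tested. The mean of probe sets turned Orc3 to -0.28 and Orc4 to -0.43, both past the threshold. Single probe sets reversed Mcm5 (-0.74), Orc3 (-0.46) and Orc4 (-1.02 and -0.66). Quantile normalisation, which moved the median of all genes to 0.028 and that of the members to 0.028, gave 3 higher and 1 lower member, 4 and 6 other replication genes, and of all genes 51.8% of calls higher, against 42.6%. Of the 810 values of members not past the threshold, 4 became calls in the same direction and 70 changed sign. The causes were not tested. Kept probe sets are the brightest of each gene by choice. Of those that reversed, the probe set of Mcm5 averaged 46.5 in ALT tumours, against a signal filter of 25.27. The Orc4 probe set 1423336_at was not dim, with means of 469.9 in telomerase tumours and 223.8 in ALT tumours.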
